A study of Mus musculus with 5 samples.

Results

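Lipoprotein lipase and the genes around it in fatty acid uptake were followed across the cell types of mouse interscapular brown adipose tissue (iBAT). The 10 genes are Lpl, Lmf1, Gpihbp1, Angptl4, Cd36, Fabp3, Fabp4, Fabp5, Slc27a1 and Acsl1, chosen by symbol for their roles in the pathway and found in both matrices, 10 of 32285 genes in each. Single-nuclei RNA sequencing gave unique molecular identifier (UMI) counts per gene and nucleus. One matrix joins a library of WT and a library of Ucp1-STX4KO mice, all 3 months old, and is called the 3-month matrix here. The other, the aging matrix, joins libraries of C57BL/6J mice aged 2, 12 and 24 months. In Ucp1-STX4KO mice, Cre driven by the Ucp1 promoter deletes floxed Stx4 (Stx4a in the matrices) in brown adipocytes, and the WT littermates carry either the Cre or the floxed alleles alone. The mice were male, nuclei were sorted before loading, and each condition is 1 library with no replicate. Barcodes end in a digit, the suffix, that tells the libraries of a matrix apart. No source used here ties a suffix to a genotype or an age, so libraries are named by suffix and no genotype or age comparison was made.

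Triglyceride-rich lipoproteins are unloaded on the inner wall of capillaries. LPL, the enzyme that cuts triglyceride into fatty acids, is made mainly by parenchymal cells, matured in the endoplasmic reticulum with LMF1, and carried across the endothelium by GPIHBP1, while ANGPTL4 inactivates it. The freed fatty acids are taken up with the help of CD36 and fatty acid transport proteins, held in the cytosol by fatty acid binding proteins, and trapped as acyl-CoA by synthetases such as ACSL1. Brown fat takes up much lipid this way when it burns fuel for heat.

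Nuclei were sorted into cell types by marker genes that include none of the 10. Of the nuclei with at least 200 UMIs and 100 genes, 18164 (89.4%) of the 3-month matrix and 23113 (83.0%) of the aging matrix met one gate. Every sample is labelled as brown adipocytes, and in the 3-month matrix 15624 nuclei (76.9%) met the adipocyte gate. In the aging matrix only 1987 (7.14%) did, against 16300 (58.5%) that met the endothelial gate. Capillary endothelial nuclei numbered 176 (59 with suffix 1 and 117 with suffix 2) in the 3-month matrix and 11261 (1351, 3952 and 5958) in the aging matrix. Median UMIs of adipocyte and capillary nuclei were 5784 and 1946 in the 3-month matrix, and 2180 and 1608 in the aging matrix. Of the nuclei with enough marker UMIs, 1014 and 2708 led their next best list by 2 to 3 times, just inside the gate, and 748 and 1618 by 1.5 to 2 times, just outside it. The median adipocyte marker rate was 66.1 UMIs per 10000 in adipocyte nuclei of the 3-month matrix and 21.6 in its endothelial nuclei, while in the aging matrix it was 48.8 and 0. The median endothelial marker rate in adipocyte nuclei was 0 in the 3-month matrix and 8.29 in the aging matrix. Stx4a had a 95% counting interval of 58.2 to 61.8 counts per 1000000 UMIs (CPM) in adipocyte nuclei with suffix 1 of the 3-month matrix and of 47.5 to 52.7 CPM in those with suffix 2, and whether these UMIs come from the deleted stretch is not stated.

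Levels are CPM of the UMIs summed over a class, with exact Poisson 95% intervals in parentheses, and ratios carry exact conditional binomial 95% intervals. All intervals cover counting error only, since no replicate gives the spread between animals. A member is called higher or lower where 2 classes differ at least 2-fold over at least 50 UMIs. Levels are compared within a gene and not between genes. Droplets also take up free RNA, so ratios to adipocyte nuclei were set beside those of 6 adipocyte genes outside the gate (Ucp1, Cidea, Elovl3, Adrb3, Otop1, Cox8b). Summed over these 6, capillary nuclei held 0.438 and 0.368 of the adipocyte level in the libraries of the 3-month matrix, and 0.0411, 0.189 and 0.0666 in those of the aging matrix. In the other direction, 7 endothelial genes (Egfl7, Tie1, Erg, Cldn5, Esam, Robo4, Shank3) summed to 0.00385 of their capillary level in adipocyte nuclei of the 3-month matrix and to 0.142 in those of the aging matrix. The part of free RNA in the members' ratios was not tested.

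From adipocytes to the capillary wall, the members parted into 3 sets. Gpihbp1, Cd36, Fabp4 and Fabp5 had a ratio of capillary to adipocyte nuclei above 1 in all 5 libraries. Cd36 and Fabp4 were below 2-fold in some libraries, and Fabp4 also in the summed aging matrix, at 1.68. Acsl1, Slc27a1 and Lmf1 were lower in capillary nuclei in all 5, although the counts of Lmf1 in the 3-month capillary nuclei were too few to set its level. With the UMIs of all libraries of a matrix summed, Lpl and Angptl4 stayed within 2-fold, although single libraries went below 0.5, and Fabp3 was called lower in the aging matrix only. Called higher in the 3-month matrix were 4 members, and called lower 3, where 21.2% and 32.9% of 15131 genes were called. The aging matrix had 3 called higher and 4 lower, against 18.1% and 25.1% of 13112 genes. Over members, the median log2 ratio was -0.49 and -0.73 in the 2 matrices, against -0.25 and -0.22 over all genes. With a counting interval that must also exclude 1, a rule added after the data were seen, all these calls stood, and the background fell to 14.2% and 10.2% in the 3-month matrix and stayed at 17.8% and 25.1% in the aging matrix.

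**Figure D1:**
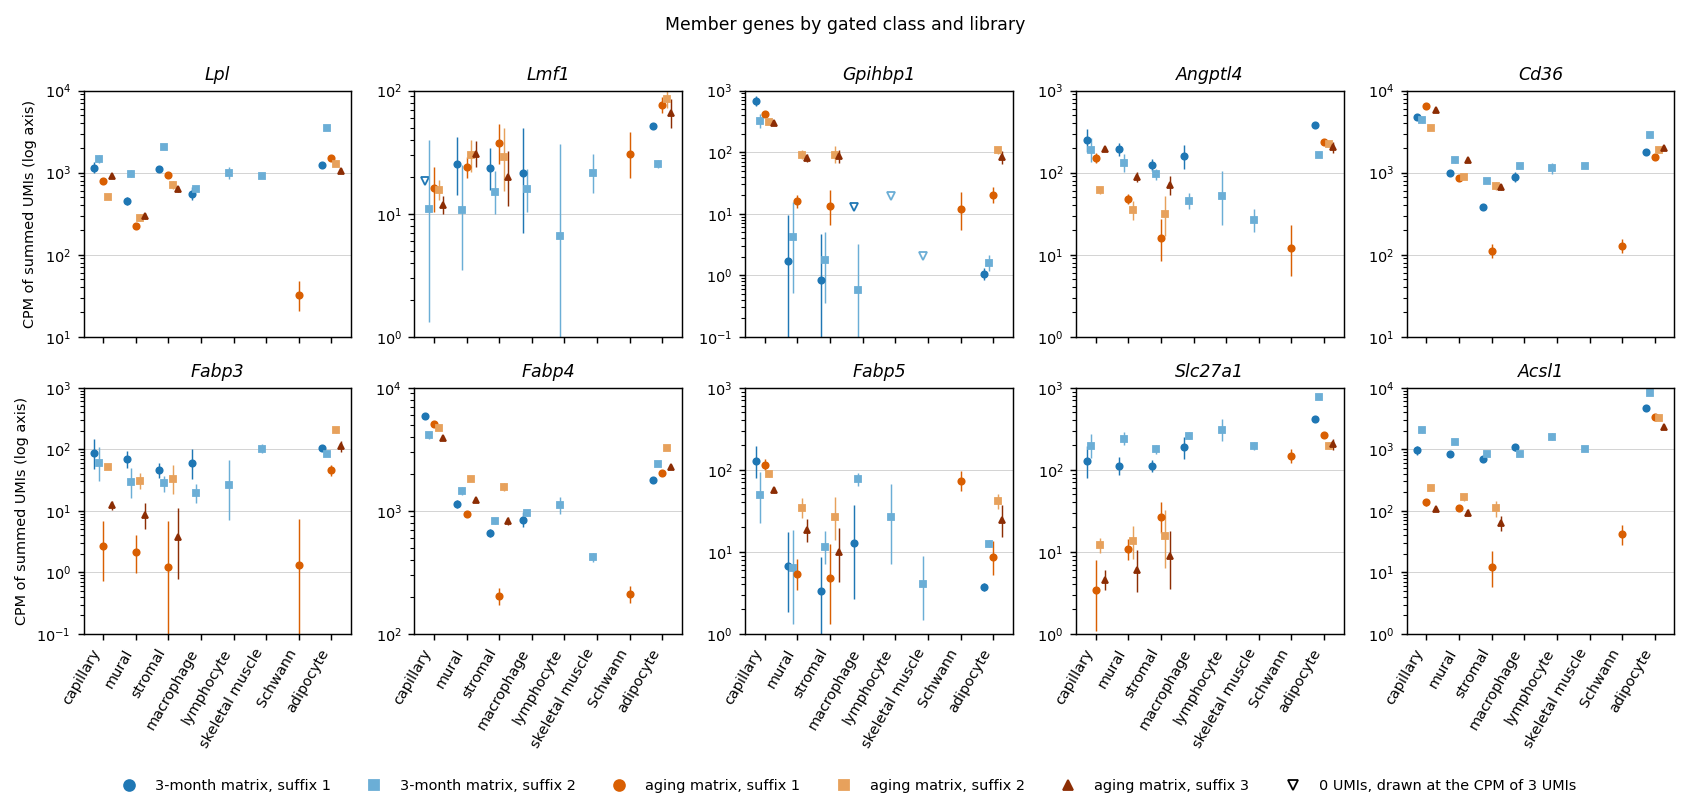
Level of each member by gated class, as CPM of summed UMIs on a log axis. Each point is 1 library with at least 50 nuclei of the class, bars are 95% Poisson intervals (cut at the lower edge of a panel where they run past it), and open triangles mark 0 UMIs at the CPM of 3 UMIs. Gpihbp1 was between 299 and 676 CPM in capillary nuclei of the 5 libraries, and Acsl1 was between 2274 and 8095 CPM in adipocyte nuclei.

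Lpl (ENSMUSG00000015568) encodes the lipase itself and lies on the forward strand at chr8:68880491-68907448 of GRCm38. In adipocyte nuclei of the 3-month matrix it measured 1235 CPM with suffix 1 and 3506 CPM with suffix 2, and in those of the aging matrix 1491, 1279 and 1056 CPM. In capillary nuclei it measured 1156 and 1476 CPM in the 3-month matrix, and 791, 511 and 913 CPM in the aging matrix. Capillary levels were thus below adipocyte levels in every library, by ratios of 0.936 (0.807 to 1.08) and 0.421 (0.372 to 0.474) in the 3-month matrix, and 0.530, 0.399 and 0.865 in the aging matrix. The interval of suffix 1 of the 3-month matrix includes 1.

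Lpl in capillary nuclei of the aging matrix was compared with the 6 adipocyte genes. Its ratio was above that of all 6 genes with suffixes 1 and 3 and above 5 of 6 with suffix 2, where only Cox8b, at 0.743, was higher. In the 3-month matrix it was above 5 of 6 with suffix 1 and 3 of 6 with suffix 2.

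Stromal nuclei, gated on collagens and Pdgfra, were the other class with much Lpl, above the capillary level of the same library in 3 of 5 libraries. They held 1113 and 2054 CPM in the 3-month matrix, and 936, 700 and 633 CPM in the aging matrix. These are 0.901 and 0.586, and then 0.628, 0.547 and 0.600 of the adipocyte level of the same library. The 6 adipocyte genes summed to 0.282 and 0.172, and then to 0.00702, 0.121 and 0.0301, of their adipocyte level in the same stromal nuclei. The other classes held less. Mural nuclei measured 454 and 977 CPM, and then 225, 283 and 295 CPM, while Schwann nuclei of the aging matrix measured 32.0 CPM with suffix 1. Of the Lpl UMIs of gated nuclei in the 3-month matrix, 0.680% came from skeletal muscle, 0.597% from macrophage and 0.0826% from lymphocyte nuclei. These classes made up 1.375%, 1.76% and 0.172% of all gated UMIs there.

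**Figure D2:**
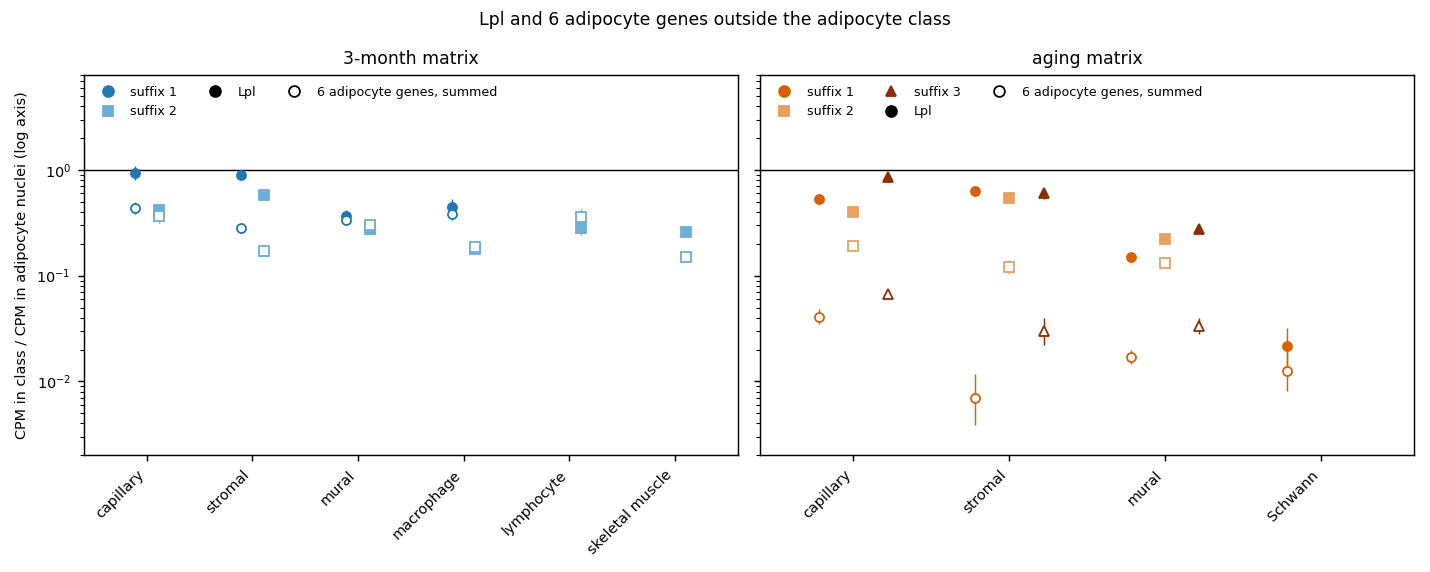
Ratio of each class to adipocyte nuclei of the same library, on a log axis, for Lpl (filled) and for the sum of 6 adipocyte genes (open), with 95% counting intervals. In stromal nuclei of all 5 libraries Lpl lay above the summed adipocyte genes, at 0.901 against 0.282 in suffix 1 of the 3-month matrix and at 0.628 against 0.00702 in suffix 1 of the aging matrix. Classes under 50 nuclei in a library are not drawn.

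Lpl was also counted by nucleus. After each nucleus was thinned to 1000 UMIs, which left out shallower nuclei (48 of the 1987 adipocyte nuclei and 887 of the 11261 capillary nuclei, the latter all from suffix 1, of which 464 remained), an Lpl UMI was found in 66.4% of adipocyte, 48.5% of capillary, 46.9% of stromal, 20.4% of mural and 8.56% of Schwann nuclei of the aging matrix. By library, the thinned capillary share of Lpl was 51.9%, 38.2% and 55.1%. Before thinning, the shares of the 5 classes were 85.4%, 63.1%, 64.8%, 36.6% and 13.5%. Thinned shares in the 3-month matrix ran only from 48.4% in macrophage to 73.9% in adipocyte nuclei, so no class there was free of Lpl UMIs.

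Since the 2 matrices hold different mixtures of nuclei, the same gene was counted mostly in different cells. In the 3-month matrix 95.4% of the Lpl UMIs of gated nuclei came from adipocytes, which made up 92.5% of all gated UMIs. In the aging matrix 65.8% came from endothelial and 21.9% from adipocyte nuclei, which made up 64.0% and 11.2% of all gated UMIs.

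Lmf1 (ENSMUSG00000002279, chr17:25579085-25662826, forward strand), the chaperone-like factor that LPL needs to mature, was an adipocyte-high gene at a low level. Adipocyte nuclei held 51.5 and 25.3 CPM in the 3-month matrix, and 76.7, 84.8 and 65.3 CPM in the aging matrix. Capillary nuclei of the aging matrix held 16.2, 15.6 and 11.9 CPM, so that no capillary value reached an adipocyte value. Their ratios were 0.212, 0.184 and 0.182. Only 2 Lmf1 UMIs fell in capillary nuclei of the 3-month matrix, 0 with suffix 1 and 2 with suffix 2. Mural and stromal nuclei of the aging matrix were between, at 26.9 CPM (23.4 to 30.8) and 29.0 CPM over all libraries.

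Gpihbp1 (ENSMUSG00000022579, chr15:75596628-75599481, forward strand), the anchor that moves LPL to the capillary lumen and holds it there, was the most endothelial of the 10 genes. Capillary nuclei held 676 and 323 CPM in the 3-month matrix, and 424, 309 and 299 CPM in the aging matrix. Adipocyte nuclei held 1.05 and 1.60 CPM in the 3-month matrix, and 20.2, 108 and 82.8 CPM in the aging matrix. No adipocyte value reached a capillary value. The ratio was 641 (475 to 869) and 201 (135 to 302) in the 3-month matrix, and 21.0, 2.88 and 3.62 in the aging matrix.

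The ratio fell where adipocyte nuclei carried other endothelial message. Of their capillary level, adipocyte nuclei of the aging matrix held 0.0477, 0.348 and 0.277 for Gpihbp1, and 0.0578, 0.211 and 0.154 for the sum of the 7 endothelial genes. The same values for the 3-month matrix were 0.00156 and 0.00497 for Gpihbp1, and 0.00293 and 0.00606 for the 7 genes. The part of this endothelial message in the Gpihbp1 counts of adipocyte nuclei was not tested.

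Counted by nucleus, a Gpihbp1 UMI was found after thinning in 28.3% (21.4 to 36.0, Clopper-Pearson 95% interval) of capillary and 0.158% of adipocyte nuclei of the 3-month matrix. Shares in the aging matrix were 25.3% and 7.89%, and Schwann nuclei, which should lack the gene, stood at 1.51%. The unthinned shares of capillary and adipocyte nuclei were 43.2% and 0.666% in the 3-month matrix, and 38.8% and 14.2% in the aging matrix. Endothelial nuclei made up 0.554% of the gated UMIs of the 3-month matrix and held 63.9% of its Gpihbp1 UMIs.

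Angptl4 (ENSMUSG00000002289, chr17:33773750-33781830, reverse strand), the secreted inhibitor of LPL, was found on both sides. Adipocyte nuclei held 384 and 163 CPM in the 3-month matrix, and 236, 223 and 203 CPM in the aging matrix. Capillary nuclei held 252 and 191 CPM, and then 151, 60.7 and 196 CPM. The values of the 2 classes overlapped in the 3-month matrix and did not in the aging matrix. The ratio was 0.657 (0.471 to 0.891) and 1.17 (0.816 to 1.63), and then 0.640, 0.272 and 0.966 (0.828 to 1.13), so that for suffix 2 of the 3-month matrix and suffix 3 of the aging matrix the interval includes 1.

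**Figure D3:**
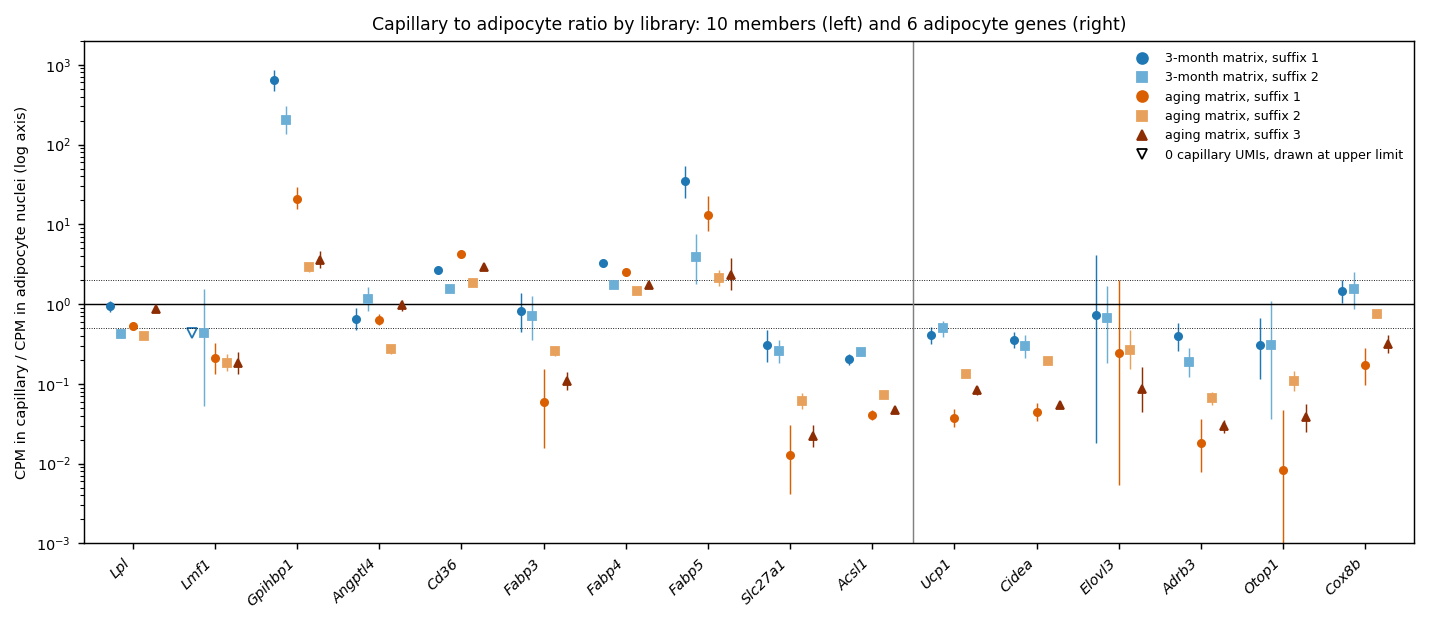
Ratio of capillary endothelial to adipocyte CPM for each member, on a log axis, 1 point per library with its 95% counting interval. The 6 adipocyte genes are drawn beside the members, each on its own. Open triangles mark 0 capillary UMIs, drawn at the upper limit of the interval. Gpihbp1, Cd36, Fabp4 and Fabp5 lay above 1 in all 5 libraries, Acsl1 at 0.0408 to 0.251 and Slc27a1 at 0.0129 to 0.308 lay below 1 in all 5.

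Cd36 (ENSMUSG00000002944, chr5:17781690-17888801, reverse strand), the membrane glycoprotein that takes up long-chain fatty acids, was high in both classes and highest at the capillary wall. Capillary nuclei held 4808 and 4373 CPM in the 3-month matrix, and 6558, 3511 and 5866 CPM in the aging matrix. Adipocyte nuclei held 1792 and 2840 CPM, and then 1561, 1901 and 1996 CPM. The classes did not overlap, and the ratio was 2.68 and 1.54 in the 3-month matrix, and 4.20, 1.85 and 2.94 in the aging matrix. It was above that of all 6 adipocyte genes in each of the 5 libraries. With suffix 2 of the 3-month matrix, however, the highest of these genes, at 1.538, lay inside the interval of Cd36 (1.435 to 1.651). Mural nuclei held 1002 and 1410 CPM, and then 854, 881 and 1440 CPM, below the capillary level of the same library in all 5. After thinning, 96.9% and 97.0% of capillary nuclei of the 2 matrices held a Cd36 UMI, against 82.7% and 78.5% of adipocyte nuclei.

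Promoter windows of 250 bases before a RefSeq transcript start (GRCm38.p6) were at hand for 5 of the 10 members and 1 window is printed for each of 3 of them, since Cd36 was high at the capillary wall while Acsl1 and Slc27a1 were low there and high in adipocytes. They run 5′ to 3′ on the strand of the gene, and capitals mark matches to the motifs named next.
Cd36: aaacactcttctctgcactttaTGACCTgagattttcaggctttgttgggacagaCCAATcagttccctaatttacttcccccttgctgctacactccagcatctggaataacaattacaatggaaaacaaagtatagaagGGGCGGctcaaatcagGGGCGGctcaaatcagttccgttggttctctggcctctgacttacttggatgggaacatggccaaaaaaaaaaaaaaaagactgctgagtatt
Acsl1: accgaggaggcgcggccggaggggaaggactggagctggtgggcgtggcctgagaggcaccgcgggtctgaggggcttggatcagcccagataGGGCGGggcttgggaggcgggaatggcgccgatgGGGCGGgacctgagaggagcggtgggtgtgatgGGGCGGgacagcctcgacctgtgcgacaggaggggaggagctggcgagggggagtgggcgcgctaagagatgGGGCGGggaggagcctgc
Slc27a1: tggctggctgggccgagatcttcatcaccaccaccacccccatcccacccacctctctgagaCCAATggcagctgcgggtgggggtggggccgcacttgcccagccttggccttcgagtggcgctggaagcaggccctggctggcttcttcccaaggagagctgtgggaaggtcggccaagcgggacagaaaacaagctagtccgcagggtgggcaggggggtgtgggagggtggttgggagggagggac

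In the Cd36 window, on the reverse strand at chr5:17835897-17836146, the capitals are 1 match to AGGTCA, the unit that nuclear receptors bind, on the opposite strand, 228 bases before the start, 1 CCAAT box at 195 and 2 Sp1 boxes (GGGCGG) at 109 and 93. The printed Acsl1 window, on the forward strand at chr8:46470787-46471036, holds 4 Sp1 boxes at 157, 123, 90 and 18 bases before the start. The printed Slc27a1 window, on the forward strand at chr8:71568621-71568870, holds 1 CCAAT box at 188. Windows before other starts of these genes differ, with 2 CCAAT boxes and no Sp1 box in the second of Acsl1, and with Sp1 boxes in both others of Slc27a1. Both strands were searched. Of 32851 windows of this length, 4607 hold AGGTCA, and 32.7% GGGCGG, 33.8% CCAAT, 12.4% TATAAA, 6.02% CACGTG and 0.0335% the PPAR response element, a direct repeat of AGGTCA with 1 base between the copies. The 8 windows of the 5 members held these in 1, 5, 4, 0, 1 and 0 windows. A match is a description of the letters only.

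Fabp4 (ENSMUSG00000062515, chr3:10204088-10208576, reverse strand), a cytosolic fatty acid carrier best known from adipocytes, was also higher in capillary nuclei. They held 5891 and 4100 CPM in the 3-month matrix, and 5087, 4711 and 3894 CPM in the aging matrix. Adipocyte nuclei held 1791 and 2379 CPM, and then 2026, 3209 and 2271 CPM, all below the lowest capillary value of 3894 CPM. The ratio was 3.29 and 1.72, and then 2.51, 1.47 and 1.72.

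Fabp5 (ENSMUSG00000027533, chr3:10012548-10016607, forward strand), a related carrier, was much lower in CPM and showed the second largest capillary ratio of the 3-month matrix. Capillary nuclei held 129 and 49.2 CPM, and then 115, 87.8 and 56.4 CPM. Adipocyte nuclei held 3.73 and 12.6 CPM, and then 8.72, 41.4 and 24.5 CPM, with no overlap. The ratio was 34.6 (21.1 to 54.0) and 3.90 (1.77 to 7.49), and then 13.2, 2.12 and 2.30, while only 30 capillary UMIs stand behind the 3-month values.

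Fabp5 was not limited to endothelium. Macrophage nuclei of the 3-month matrix held 12.8 and 76.4 CPM, and Schwann nuclei of the aging matrix 73.4 CPM with suffix 1. After thinning, 6.02% of macrophage and 7.55% of capillary nuclei of the 3-month matrix held a Fabp5 UMI, against 0.646% of adipocyte and 0.759% of stromal nuclei. The aging matrix gave 5.54% in Schwann, 6.46% in capillary, 2.84% in adipocyte and 1.05% in mural nuclei.

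Fabp3 (ENSMUSG00000028773, chr4:130308595-130315463, forward strand), the carrier of oxidative muscle that brown fat also makes, was an adipocyte gene in the aging matrix. Adipocyte nuclei held 106 and 85.2 CPM in the 3-month matrix, and 45.9, 204 and 113 CPM in the aging matrix. Capillary nuclei held 86.1 and 60.1 CPM, and then 2.70, 52.2 and 12.2 CPM. The ratio was 0.812 (0.444 to 1.36) and 0.706 (0.352 to 1.26), with both intervals across 1, and then 0.0589, 0.256 and 0.108. Skeletal muscle nuclei, present with suffix 2 of the 3-month matrix, held 103 CPM, near the 85.2 CPM of adipocyte nuclei of that library.

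Acsl1 (ENSMUSG00000018796, chr8:46471037-46536051, forward strand), the synthetase that turns fatty acids into acyl-CoA, was the adipocyte end of the pathway. Adipocyte nuclei held 4708 and 8095 CPM in the 3-month matrix, and 3347, 3209 and 2274 CPM in the aging matrix. Capillary nuclei held 965 and 2034 CPM, and then 137, 233 and 106 CPM, so that no value reached an adipocyte value of the same matrix. The ratio was 0.205 and 0.251, and then 0.0408, 0.0727 and 0.0467. These lay below the median ratio of the 6 adipocyte genes in all 5 libraries, and of the 6, 0 and 1, and then 3, 1 and 2, lay below Acsl1. After thinning, 79.2% of capillary nuclei of the 3-month matrix and 13.8% of those of the aging matrix held an Acsl1 UMI, while adipocyte nuclei stood at 97.2% and 86.3%.

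Slc27a1 (ENSMUSG00000031808, chr8:71568882-71587302, forward strand), a fatty acid transport protein, followed Acsl1. Adipocyte nuclei held 420 and 763 CPM in the 3-month matrix, and 263, 198 and 205 CPM in the aging matrix. Capillary nuclei held 129 and 197 CPM, and then 3.38, 12.1 and 4.58 CPM. The ratio was 0.308 and 0.258, and then 0.0129, 0.0610 and 0.0223, with at most 1 of the 6 adipocyte genes below it in any library. The other class with a clear level in the aging matrix was Schwann nuclei, at 147 CPM with suffix 1, where Acsl1 held 41.3 CPM and the 6 adipocyte genes summed to 0.0127 of their adipocyte level. After thinning, 13.1% of Schwann and 0.646% of capillary nuclei of the aging matrix held an Slc27a1 UMI.

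Among endothelial nuclei of the aging matrix, several members were higher in capillaries than in larger vessels. Arterial (304) and venous (227) nuclei were gated on their own markers, and the 14 lymphatic nuclei were too few to use. Lpl measured 131, 327 and 381 CPM in arterial nuclei of suffixes 1 to 3 and 87.6, 212 and 294 CPM in venous nuclei, below the capillary level of each library. Gpihbp1 measured 65.3, 148 and 221 CPM in arterial and 29.2, 72.5 and 119 CPM in venous nuclei, again below the capillary level of each library. Suffix 1 is thin here, with 47 arterial and 51 venous nuclei. Its Lpl values rest on 6 UMIs in each vessel type, and its Gpihbp1 values on 3 arterial and 2 venous UMIs. Over all libraries, capillary nuclei exceeded arterial nuclei 2.31-fold (2.00 to 2.68) in Lpl and 1.90-fold (1.55 to 2.35) in Gpihbp1, and venous nuclei 3.13-fold (2.64 to 3.75) and 3.37-fold (2.56 to 4.53). Angptl4 and Cd36 exceeded arterial nuclei 4.14-fold (2.68 to 6.79) and 2.10-fold (2.00 to 2.22) in the same sums. The libraries contribute unequally to these sums. Suffix 2 gave 177 of the 304 arterial nuclei, and suffix 3 gave 5958 of the 11261 capillary nuclei. The arterial sum of Angptl4 rests on 20 UMIs, so its fold is not that of any single library. By library, Angptl4 measured 151, 60.7 and 196 CPM in capillary, 0, 25.6 and 60.7 CPM in arterial, and 14.6, 16.7 and 198 CPM in venous nuclei. Capillary nuclei were thus higher than arterial nuclei in all 3 libraries, and higher than venous nuclei with suffixes 1 and 2 but not with suffix 3. Summed over libraries, which contribute unequally to the vessel types, Angptl4 stood at 1.23-fold (0.962 to 1.60) against venous nuclei.

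Against arterial nuclei 3 members were called higher and 0 lower, where 11.8% and 7.2% of 12195 genes were called. Against venous nuclei 3 members were called higher (Lpl, Gpihbp1 and Fabp3) and 0 lower, where 16.6% and 9.12% of 12201 genes were called. Fabp3 rests on 5 venous UMIs. Where the counting interval must also exclude 1, these members stayed called and the background was 3.65% and 5.31% against arterial, and 5.71% and 7.14% against venous nuclei. Fabp4 and Fabp5 stayed within 2-fold of both vessel types, at 1.54 and 1.27 against arterial and 1.49 and 1.37 against venous nuclei.

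**Figure D4:**
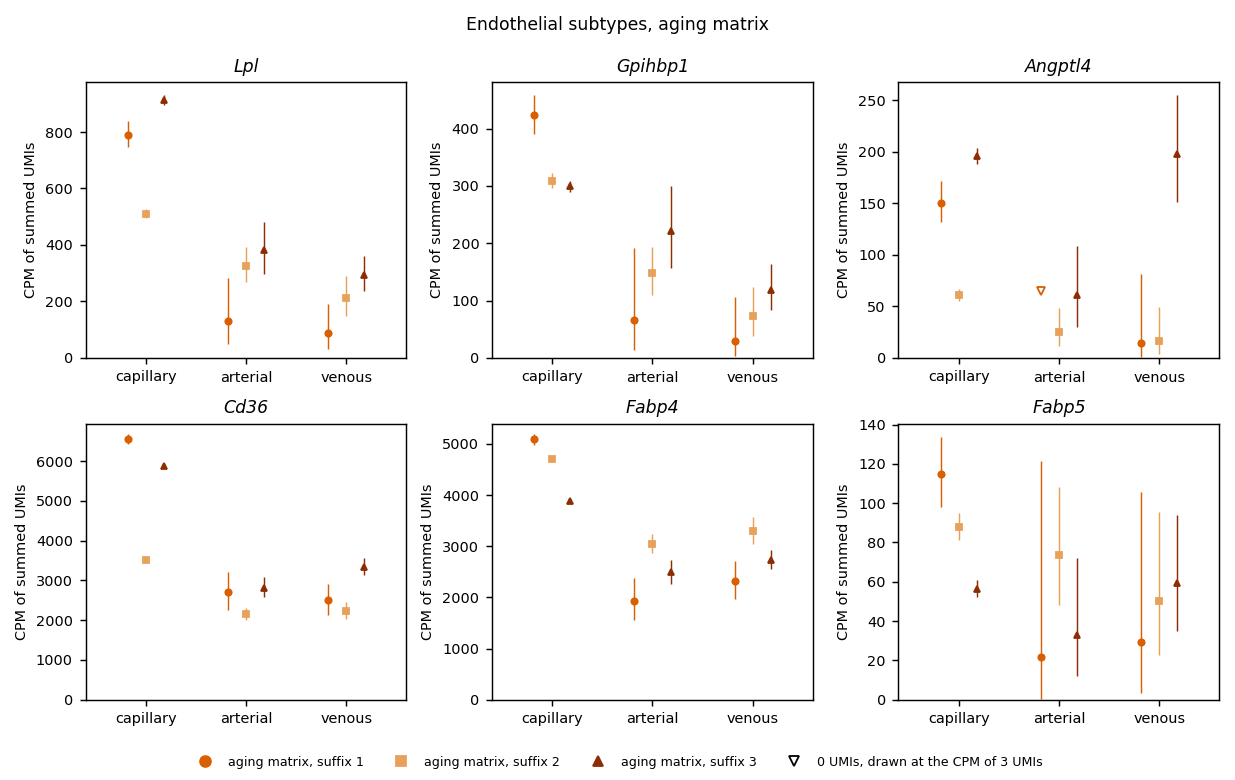
Level of members in capillary, arterial and venous nuclei of the aging matrix, as CPM on a linear axis. Each point is 1 library with its 95% Poisson interval. Open triangles mark a class without UMIs of the gene in a library, drawn at the CPM of 3 UMIs. Lpl and Gpihbp1 were highest in capillary nuclei of all 3 libraries, for example 309 against 148 and 72.5 CPM of Gpihbp1 with suffix 2. With suffix 1 the arterial and venous values of Gpihbp1 rest on 3 and 2 UMIs. With suffix 3 its arterial interval (158 to 300) reaches the capillary value of 299 CPM.

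Within adipocyte nuclei, the members also differed between the libraries of the 3-month matrix. Suffix 2 exceeded suffix 1 in Lpl, 2.84-fold (2.81 to 2.87), and in Fabp5, 3.38-fold (2.88 to 3.97). It was lower in Angptl4, at 0.425 (0.412 to 0.438), and in Lmf1, at 0.490 (0.453 to 0.531). Among the ratios of all genes tested, Lpl stood at percentile 90.3, Angptl4 at 16.9 and Lmf1 at 22.3, and the median ratio was 0.790. Lmf1 lay near the 2-fold cut, at 0.4623 to 0.5155 over the alternative ways of processing, so its call did not hold in all of them. Acsl1, Slc27a1, Cd36 and Fabp4 were higher by less than 2-fold, at 1.72, 1.82, 1.58 and 1.33. The 2 members called higher and 2 called lower stand beside 13.2% and 23.2% of 15153 genes, and with 1 library per condition the difference has no replicate check. Median UMIs of these adipocyte nuclei were 6216 and 4636, and which library is which genotype is not known.

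In the aging matrix, adipocyte nuclei of suffix 2 held more Gpihbp1 (5.32-fold), Fabp5 (4.75-fold) and Fabp3 (4.44-fold) than those of suffix 1, and those of suffix 3 more Gpihbp1 (4.10-fold) and Fabp3 (2.46-fold). No member was called lower in either. The background was 7.2% higher and 7.19% lower of 8485 genes for suffix 2, and 4.81% and 6.62% of 7407 genes for suffix 3 (6.56% lower where the interval must exclude 1). The endothelial genes rose in the same nuclei, from 0.0578 to 0.211 and 0.154 of their capillary level, and their part in the Gpihbp1 and Fabp5 values was not tested. Lpl itself was lower there by less than 2-fold, at 0.858 (0.814 to 0.904) and 0.708 (0.657 to 0.763) of the level of suffix 1.

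**Figure D5:**
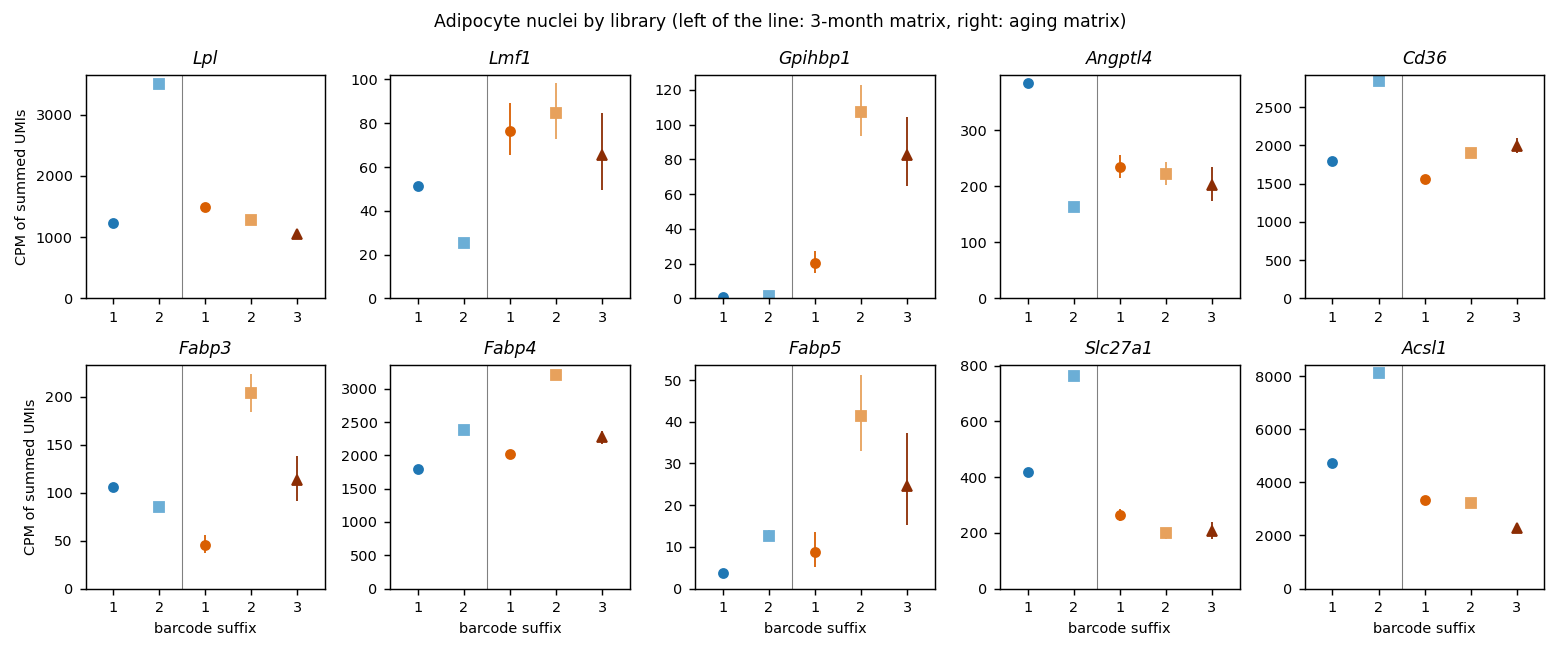
Level of each member in adipocyte nuclei of the 5 libraries, as CPM on a linear axis with 95% Poisson intervals. In the 3-month matrix Lpl stood at 1235 and 3506 CPM and Angptl4 at 384 and 163 CPM for suffixes 1 and 2.

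Capillary nuclei varied between libraries in other members. In the 3-month matrix suffix 2 held more Acsl1 (2.11-fold) and less Gpihbp1 (0.477), where 6.01% and 6.07% of 1548 genes were called and 7 members had enough UMIs. Adipocyte nuclei with suffix 2 also held more Acsl1 (1.72-fold). The 6 adipocyte genes in capillary nuclei stood at 0.438 and 0.368 of their adipocyte level with suffixes 1 and 2. The part of adipocyte message in the capillary Acsl1 values was not tested. In the aging matrix suffix 2 held less Angptl4 than suffix 1 (0.403) and more Slc27a1 (3.57) and Fabp3 (19.3), the last 2 against 5 and 4 UMIs, where 8.72% of 10180 genes were called higher and 4.08% lower. The 6 adipocyte genes in these capillary nuclei also stood higher, at 0.189 of their adipocyte level with suffix 2 and 0.0411 with suffix 1, and their part in the Slc27a1 and Fabp3 values was not tested. Suffix 3 held more Fabp3 (4.51) and less Fabp5 (0.491), where 5.33% and 4.78% of 10714 genes were called. With the interval rule, the background was 7.61% higher for suffix 2, and 3.93% higher and 4.72% lower for suffix 3.

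The other genes of the pathway, 51 in 8 lists, did not divide between capillary and adipocyte nuclei as a whole. Genes of caveolae and endothelial fatty acid handling were mostly higher in capillary nuclei, and those of triglyceride assembly mostly lower. The remaining lists held mixed calls or genes within 2-fold, and some genes had too few UMIs to test. Of 8 genes of caveolae and endothelial fatty acid handling, 6 were called higher in capillary nuclei of the 3-month matrix and 5 in those of the aging matrix, with 0 and 1 lower. Over all genes 21.2% were called higher and 32.9% lower in the 3-month matrix, and 18.1% and 25.1% in the aging matrix, and the counts of lists this small are given as descriptions. The genes called higher include Meox2 and Tcf15, transcription factors of fatty acid handling in capillaries, at 214-fold and 458-fold in the 3-month matrix, with Tcf15 at 4.52-fold (3.89 to 5.29) and Meox2 with an interval of 5.86 to 8.43 in the aging matrix, and the caveolar coat gene Cavin2, at 3.82-fold and 3.37-fold in the 2 matrices. Of 5 genes of triglyceride assembly, 0 were higher and 4 and then 5 lower, with Dgat2, which adds the last acyl chain, at 0.210 and 0.0632 and Gpam, which adds the first, at 0.289 and 0.0549.

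Among genes that process or inhibit LPL, 1 of 8 tested was higher and 3 lower in the aging matrix. Hspg2, a heparan sulfate proteoglycan of basement membranes, was higher in capillary nuclei at 11.2-fold and 4.21-fold. The proprotein convertases Pcsk5 and Pcsk6 were lower, at 0.195 and 0.212, and then 0.0488 and 0.0618. Of 6 receptors and other lipases tested, Scarb1, a lipoprotein receptor, and Lipg, endothelial lipase, were higher in both matrices, at 5.66 and 4.09, and then 2.46 and 3.79, while Vldlr and Lrp1 were lower in both. Of 5 apolipoproteins 2 could be tested, with 1 higher and 0 lower in the 3-month matrix and 0 higher and 1 lower in the aging matrix. The other fatty acid transport proteins had 0 higher and 1 lower in each matrix, led by Slc27a2, at 0.257 and 0.0492. The other acyl-CoA synthetases had 0 higher, and 2 and 1 lower. Of the 2 synthetases called lower in the 3-month matrix, Acsbg1 had 0 capillary UMIs and a counting interval that reaches past 1. The other fatty acid binding proteins had 0 higher, and 0 and 1 lower.

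Over 25 combinations of class and library, which share libraries and depth, the genes most like Gpihbp1 in log2(CPM + 1) were Ly6c1 (Pearson r = 0.983), Aqp1 (0.976) and Rasip1 (0.973). Ly6c1 has near-identical neighbours, so its counts are uncertain. Those most like Lpl were Cdv3 (0.873), Ap3s1 (0.854) and Mgst1 (0.846), and those most like Cd36 were Sh3tc1 (0.854), Palmd (0.851) and Cav1 (0.850). Among members, Cd36 and Fabp4 were alike (0.916), whereas Lpl was closer to Acsl1 (0.628) than to Gpihbp1 (-0.107). These are descriptions of the points at hand.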

How the data were processed

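Interscapular brown fat nuclei were profiled by droplet single-nuclei RNA sequencing. The deposited matrices hold whole-number UMI counts, not normalised, which the authors made by alignment to mm10 with Cell Ranger 6.1.2 and joined per experiment (Seurat 4.1.0 is also in the submitters' processing notes). Whether intronic reads were counted is not given in the sources used here.

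Counts were read with Python 3.11.15 (numpy 2.4.6, scipy 1.17.1, pandas 2.3.3). Nuclei with at least 200 UMIs and 100 genes were kept (20307 of 20307 and 27842 of 30000). The study's filter adds upper limits of 2000 UMIs and 3000 genes and leaves 2763 (13.6%) and 18756 (62.5%), and was run as an alternative. Total UMIs were 116053743 and 54656055, with medians per library of 5998 and 3284.5, and of 891, 1635 and 1719.5. A nucleus joined a class with at least 3 UMIs from 2 of its markers (8 lists of 8 or 9 genes) and 2 times the rate of the next list. Nuclei of mixed markers (1608 and 3425) or few markers (535 and 1304) were left out, and no doublet caller was run. Libraries shared 23 barcodes in the 3-month matrix and 28 to 45 per pair in the aging matrix. UMIs were summed per class and library. With 1 library per condition there is no test and no p-value. The calculations were tested on simulated data. Genes named are the members, the fixed pathway, reference and marker lists, and the 3 genes most like Gpihbp1, Lpl and Cd36. Members and lists were chosen with earlier results of these data known. Alternatives changed the gate, the filter, the fold, the UMI minimum, the CPM denominator, the depth and the libraries. Gene positions are from GENCODE M21 on GRCm38. The count of 1 pathway list in the 3-month matrix is not reported here.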

Additional observations from a re-analysis of the deposited data

How the results depend on the processing

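Of the member counts under the alternatives, 103 stayed within 1.5 times the count reported and 9 did not. Under the study's full filter the members called higher in capillary than in adipocyte nuclei of the 3-month matrix went from 4 to 1 and those called lower from 3 to 1, and with suffix 2 alone 2 were higher. Under the full filter the ratio of Fabp5 turned to 0.444 (0.0519 to 1.72), on 2 capillary UMIs. In adipocyte nuclei of the 3-month matrix, members lower with suffix 2 went from 2 to 1 without the 8% of nuclei with the most UMIs and to 1 after thinning to 1000 UMIs, and a fold of 1.5 gave 6 higher. In adipocyte nuclei of the aging matrix, members higher with suffix 3 than suffix 1 went from 2 to 1 with a looser gate, to 1 after thinning and to 0 under the full filter. The full filter leaves fewer nuclei by construction, it gave no value for suffix 2 against suffix 1 of the 3-month matrix, where too few adipocyte nuclei remained, and the cause of the other changes was not tested. Among single genes 350 alternative values stayed within their counting interval, 159 moved outside it and 1 reversed. Asking the counting interval to exclude 1, chosen after seeing the data, left all 10 counts the same. No paired analysis was possible because each condition is 1 library. Depth limits Lmf1, Fabp3, Fabp5 and Slc27a1 in the 3-month capillary nuclei most, where they rest on 2, 25, 30 and 57 UMIs.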
